A study of Mus musculus with 12 samples.

Results

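Type I interferon-stimulated antiviral genes were followed in C790 cells, an Nras-mutant mouse melanoma line, across a change of cell state and a drug. The set listed 46 genes. A gene was used through its brightest probe set assigned to it alone, and 44 of the 46 had such a probe set, out of 18193 genes with one. Isg15 and Ifi44 were not analysed here: the probe set of Isg15 was also assigned to a second gene, and Ifi44 was named by none. The members were listed by gene name, not by their values, although results of these data were known when the list was made.

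RNA was hybridised to 12 Affymetrix expression arrays of the mouse genome, 3 in each of the 4 groups. All cells carried a doxycycline-inducible lentiviral vector for Oct4, Sox2 and Klf4 and a second vector with its transactivator. The groups were partially reprogrammed cells (+dox, kept in doxycycline to day 20) with trametinib or with DMSO, and control cells (−dox, same vectors and day, no doxycycline) with trametinib or with DMSO, each for 72 h. Trametinib inhibits the kinase MEK, and DMSO is its solvent. The dose on these arrays, and whether the cells came from 1 clone, are not given in the sources used here. The labels number the arrays but do not say whether they came from separate cultures, so the p-values rest on the spread among these arrays, which may be technical.

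Type I interferons bind the receptor pair Ifnar1 and Ifnar2, whose kinases Jak1 and Tyk2 activate Stat2. Together with Irf9 it forms part of a complex that binds the interferon-stimulated response element (ISRE) in promoters and switches on a set of genes that block viral RNA, protein synthesis and budding. Many members are also sensors or transcription factors of the same pathway, so the response feeds back on itself. In tumour cells the programme can be active without a virus.

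An ISRE core was found in part of the promoters that could be scanned. The core, GAAA and a further GAAA with 2 bases of any kind between them, was sought on both strands in the RefSeq window from 250 bases before to 50 bases after each start, in build GRCm38.p6. A window was at hand for 32 of the 44 members, and 12 of those 32 (37.5%) held the core, against 3.63% of 14452 genes. The other members with a window, Oasl2, Samd9l, Irf7 and Irf9 among them, did not hold it. Usp18, Oas2, Dhx58, Zbp1, Mx1, Mx2, Parp9, Parp14, Ccl5, Ifi27, Rtp4 and Tor3a had no window. Counted from the start used for its window, the core lay before it in Ifit1, Ifit3, Oas3, Rsad2, Ddx60, Bst2, Stat2, Socs1 and Cxcl10. In Eif2ak2, Ifih1 and Trim21 the core lay after that start. For Ifit3 and Ddx60 the start used lies inside the annotated gene, which begins at base 34583119 and 61928073. Both cores of Ifit3, and part of the core of Ddx60 nearer the start, thus lie within the gene. The variant with only 1 base between, GAAANGAAA, was in 6 members (18.8%, against 3.03% of genes). In the windows of members, 1 of its 7 matches overlapped an ISRE core. A match is a description of the letters and not of binding.

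The 70 bases around the core are shown for the 9 members that hold it before the start used, since these include the genes with the widest range across the arrays. Each runs 5′ to 3′ on the strand of its gene, and capitals mark the cores, which read TTTC first where they lie on the other strand.
Ifit1 (chr19:34640764-34640833, plus strand): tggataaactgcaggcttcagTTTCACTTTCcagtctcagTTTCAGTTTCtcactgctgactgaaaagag
Ifit3 (chr19:34583360-34583429, plus strand): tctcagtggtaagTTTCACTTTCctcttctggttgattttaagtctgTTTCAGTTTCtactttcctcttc
Oas3 (chr5:120777695-120777764, minus strand): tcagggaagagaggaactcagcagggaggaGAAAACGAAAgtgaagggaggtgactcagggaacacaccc
Rsad2 (chr12:26456533-26456602, minus strand): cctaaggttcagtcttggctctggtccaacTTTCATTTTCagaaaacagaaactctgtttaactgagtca
Ddx60 (chr8:61928017-61928086, plus strand): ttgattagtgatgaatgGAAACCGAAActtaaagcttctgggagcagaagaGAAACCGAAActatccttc
Bst2 (chr8:71537560-71537629, minus strand): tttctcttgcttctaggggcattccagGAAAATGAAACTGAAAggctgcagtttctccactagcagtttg
Stat2 (chr10:128270248-128270317, plus strand): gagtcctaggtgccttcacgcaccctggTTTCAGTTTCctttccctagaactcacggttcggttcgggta
Socs1 (chr16:10785577-10785646, minus strand): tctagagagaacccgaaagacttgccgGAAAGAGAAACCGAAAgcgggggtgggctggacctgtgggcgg
Cxcl10 (chr5:92349063-92349132, minus strand): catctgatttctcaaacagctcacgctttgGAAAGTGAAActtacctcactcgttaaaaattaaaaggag

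In Ifit1 and Ifit3 a pair of cores stood apart on the opposite strand, while in Bst2 and Socs1 a pair shared its middle GAAA. The cores of Ddx60 were identical to each other, GAAACCGAAA. Stat2 and Rsad2 held 1 core each in the reverse orientation, and Oas3 and Cxcl10 held 1 in the forward orientation.

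Checks of the samples and the values came first. The deposited log2 values ran between 2.15 and 14.46 with array medians of 5.18 to 5.37, and a background level of 4.78 was taken from receptor genes of smell and taste. No member had a group mean under it. Dusp6, a phosphatase that ERK induces, fell with trametinib, by 6.90 on the log2 scale in partially reprogrammed cells and by 8.11 in control cells, and Etv5, Spry4 and Etv4 also fell in both. Of these 4 genes 3 had means under the background level in −dox trametinib cells and 1 in +dox trametinib cells. This limits the sizes of the falls that can be read or compared between the states. Of the vector's factors Pou5f1 (Oct4) was higher in +dox than in −dox cells under DMSO, with a change of 0.82 (SE 0.16, adjusted p = 0.016), while Sox2 and Klf4 did not pass. The lowest change of the 3 factors there was -1.53 and the median -0.15, and 1 factor was lower at an unadjusted p under 0.05. Whether these probe sets read the vector is not given in the sources used here. Of 7 melanocyte genes Tyr, Dct, Mlana and Tyrp1 were under the background level on all 12 arrays. Under DMSO none of the 7, Mitf and Pmel among them, passed between the cell states. Their changes lay between -0.57 and 0.11, and the arrays overlapped for all 7. Of 13 measured leukocyte markers Ptprc, Itgax, Adgre1, Ms4a1 and Ncr1 were under it on all 12 arrays. The summed log2 level of the 13 ran between 63.09 and 64.68 in +dox trametinib, 60.14 and 65.07 in +dox DMSO, 59.63 and 61.22 in −dox trametinib and 58.22 and 60.69 in −dox DMSO cells. Cd3g, which belongs to the T cell receptor, rose with trametinib in +dox cells (change 4.18) and Itgam, an integrin of myeloid cells, fell (change -1.88), and the other 11 did not pass. In −dox cells Cd3e alone passed, with a change of 0.35. Under DMSO Cd3g and Itgam were higher and Cd14 lower in +dox cells, with changes of 1.47, 2.46 and -1.42, and under trametinib Cd3g was higher (5.52). Of 5 fibroblast markers Lum was under the background level on all 12 arrays, and Col1a1 and Dcn rose with trametinib in both cell states, by 1.94 and 3.33 in +dox and by 1.37 and 1.45 in −dox cells, where Pdgfra fell (change -0.96). Under DMSO Col1a1, Dcn and Pdgfra were lower in +dox cells, with changes of -2.30, -2.23 and -2.07, and under trametinib Col1a1 and Pdgfra were (-1.73 and -1.20). The summed log2 level of these 5 ran between 32.71 and 33.36 in +dox trametinib, 27.21 and 28.73 in +dox DMSO, 36.04 and 36.92 in −dox trametinib and 33.92 and 35.1 in −dox DMSO cells. The part of these markers in the results was not tested. On bulk RNA, more expressing cells and more RNA in each cell cannot be told apart.

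The arrays of a group did not stand at the same interferon level, and −dox trametinib replicate 1 stood apart. The mean log2 value over the 44 members was 10.18, 9.73 and 9.82 on +dox trametinib replicates 1, 2 and 3, and 7.39, 7.52 and 7.50 on the +dox DMSO arrays. It was 10.20, 9.15 and 9.14 on the −dox trametinib arrays and 8.48, 9.09 and 8.49 on the −dox DMSO arrays. The 3 arrays of +dox DMSO were thus the lowest of all and close to each other (7.47 ± 0.07, SD, n = 3), while the −dox groups spread widely (9.50 ± 0.61 with trametinib, 8.69 ± 0.35 with DMSO). The +dox trametinib group had a mean of 9.91 ± 0.24.

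Replicate 1 of −dox trametinib was the highest array of its group for 42 of the 44 members, where 37.8% of all genes were highest on it. Its members lay a median of 0.94 above the mean of the other 2 arrays, and 20 of them more than 1 above, where 1.71% of all genes were. Replicate 2 of −dox DMSO was highest for 36 members (41.4% of all genes) with a median deviation of 0.48, and +dox trametinib replicate 1 for 40 members (30.6%) with 0.37. In +dox DMSO no array led, with 16, 15 and 13 members highest on replicates 1, 2 and 3. The median SD of a member was 0.24 in +dox trametinib, 0.20 in +dox DMSO, 0.57 in −dox trametinib and 0.37 in −dox DMSO cells, where the medians over all genes were 0.14, 0.15, 0.14 and 0.17.

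**Figure D1:**
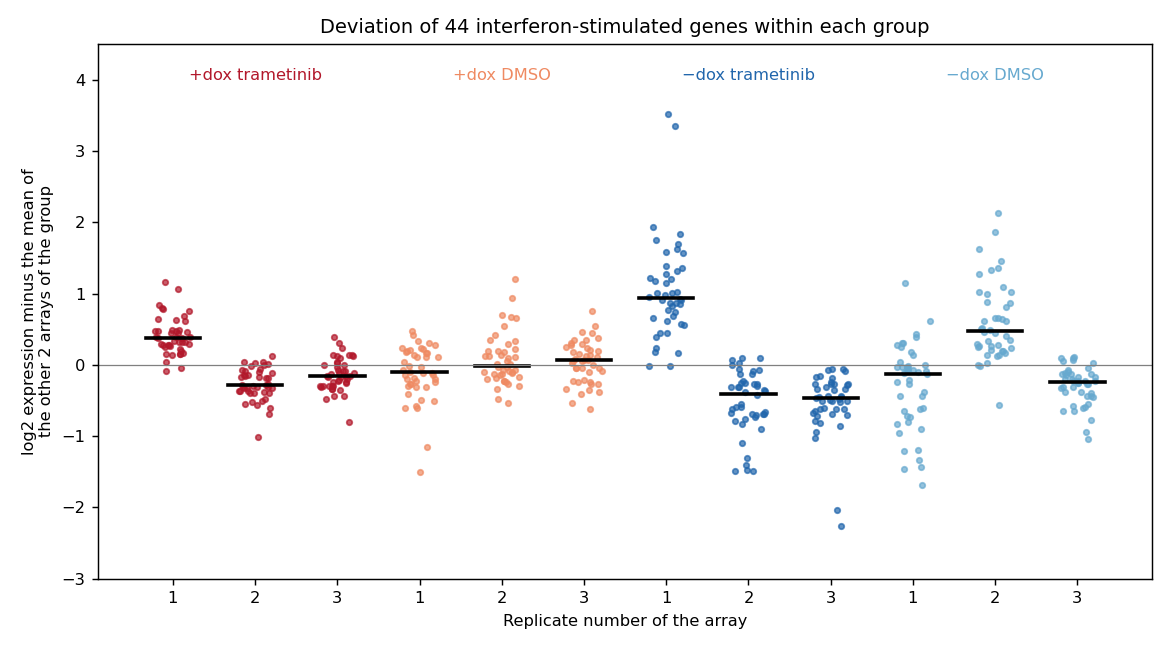
Each point is 1 of 44 members on 1 array, plotted as its log2 expression minus the mean of the other 2 arrays of its group, and black bars are medians. The points of −dox trametinib replicate 1 sit a median of 0.94 above 0, and the 2 highest are Ccl5 and Cxcl10.

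Trametinib raised most of the set in partially reprogrammed cells. In +dox cells 40 of 44 members rose with trametinib, 1 fell and 3 (Ccl5, Tor3a and Sp100) did not pass the test, at an adjusted p under 0.05 over all genes, where 13.8% of all genes were called higher and 12.5% lower. The median change was 2.14, against 0.02 over all genes. The arrays of both groups did not overlap for any member, 43 being higher with trametinib and 1 lower, where 22.1% and 18.6% of all genes did so. For 37 members the change passed with a fold over 2. Ifit1 had the largest fitted change, 6.78 on the log2 scale, with its +dox DMSO arrays at the background level, which limits the size that can be read.

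The same drug was then read in control cells. In −dox cells 16 of 44 members rose with trametinib, 0 fell and 28 did not pass, where 11.6% of all genes were called higher and 10.8% lower. The median change was 0.85, against 0.06 over all genes. The arrays did not overlap for 20 higher members (20.4% of all genes) and 2 lower ones (15.2%), and overlapped for 22. The median was 0.47 without −dox trametinib replicate 1, and the count was 7 without −dox DMSO replicate 3. In that last fit 1675 of 18193 genes were called higher and 1445 lower, against 2113 and 1959 in the main fit.

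Without the drug, partially reprogrammed cells had the lower programme. Under DMSO 22 of 44 members were lower in +dox than in −dox cells, 0 were higher and 22 did not pass, where 3.28% of all genes were called lower and 2.87% higher. The median difference was -1.01, against 0.01 over all genes. For 37 members the +dox arrays all lay under the −dox arrays, where 11.1% of all genes did. The count was 13 without −dox DMSO replicate 2 and 14 without +dox DMSO replicate 2 or replicate 3. Over all 18193 genes 596 were called lower in the main fit. That number was 394 without −dox DMSO replicate 2, and 245 and 261 without +dox DMSO replicate 2 and replicate 3.

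Under trametinib no member passed between the cell states in limma's test, where 1.95% of all genes were called higher and 1.42% lower. The median difference of +dox from −dox cells was 0.42, against -0.02 over all genes, and the arrays overlapped for 41 of 44 members. At an unadjusted p under 0.05, 9 members were higher and 1 lower, where 7.62% of all genes were higher and 6.81% lower. Without −dox trametinib replicate 1 the median was 0.76 and 11 members were higher in +dox cells: Cmpk2, Dtx3l, Herc6, Ifit2, Mx1, Oas2, Oas3, Parp12, Rsad2, Socs1 and Trim21. With array weights 6 of these 11 passed and no other member.

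The difference between the trametinib responses of the cell states passed for 4 members, Ifit1, Rsad2, Oasl2 and Samd9l, all with the larger response in +dox cells, where 0.258% of all genes were called higher and 0.0715% lower. For 42 members the response was larger in +dox cells, by a median of 1.5 over the 44 (all genes -0.02), and 40 were higher at an unadjusted p under 0.05, where 5.9% of all genes were higher and 5.73% lower. All comparisons use the same 12 arrays, and those that share a group are not independent of each other.

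**Figure D2:**
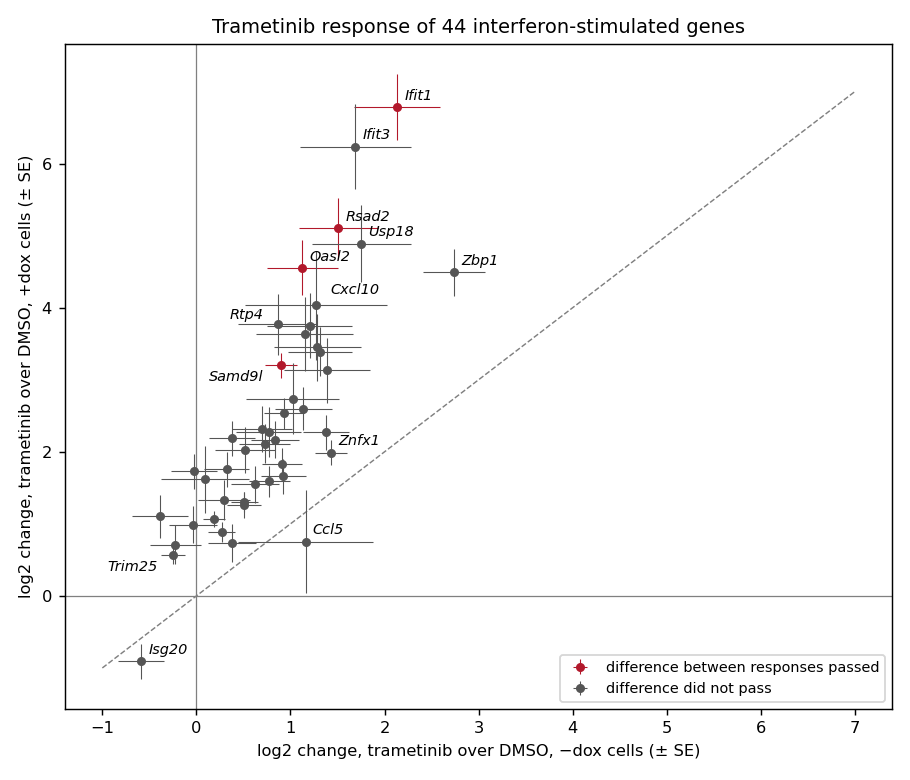
Each point is 1 of 44 members, with its log2 change with trametinib in −dox cells across and in +dox cells up, bars being the standard errors of limma and the dashed line equal responses. All points but Ccl5 and Isg20 lie above the line, Ifit1 highest at 6.78 and 2.14, and the 4 red points passed the test of the difference.

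In the order of group means, 32 members ran from +dox trametinib through −dox trametinib and −dox DMSO to +dox DMSO as the lowest. +dox DMSO was the lowest group for 42 members, the exceptions being Isg20 and Tor3a, and +dox trametinib the highest for 36. The counts by role that follow are to be read beside the shares of all genes given above for each comparison.

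**Figure D3:**
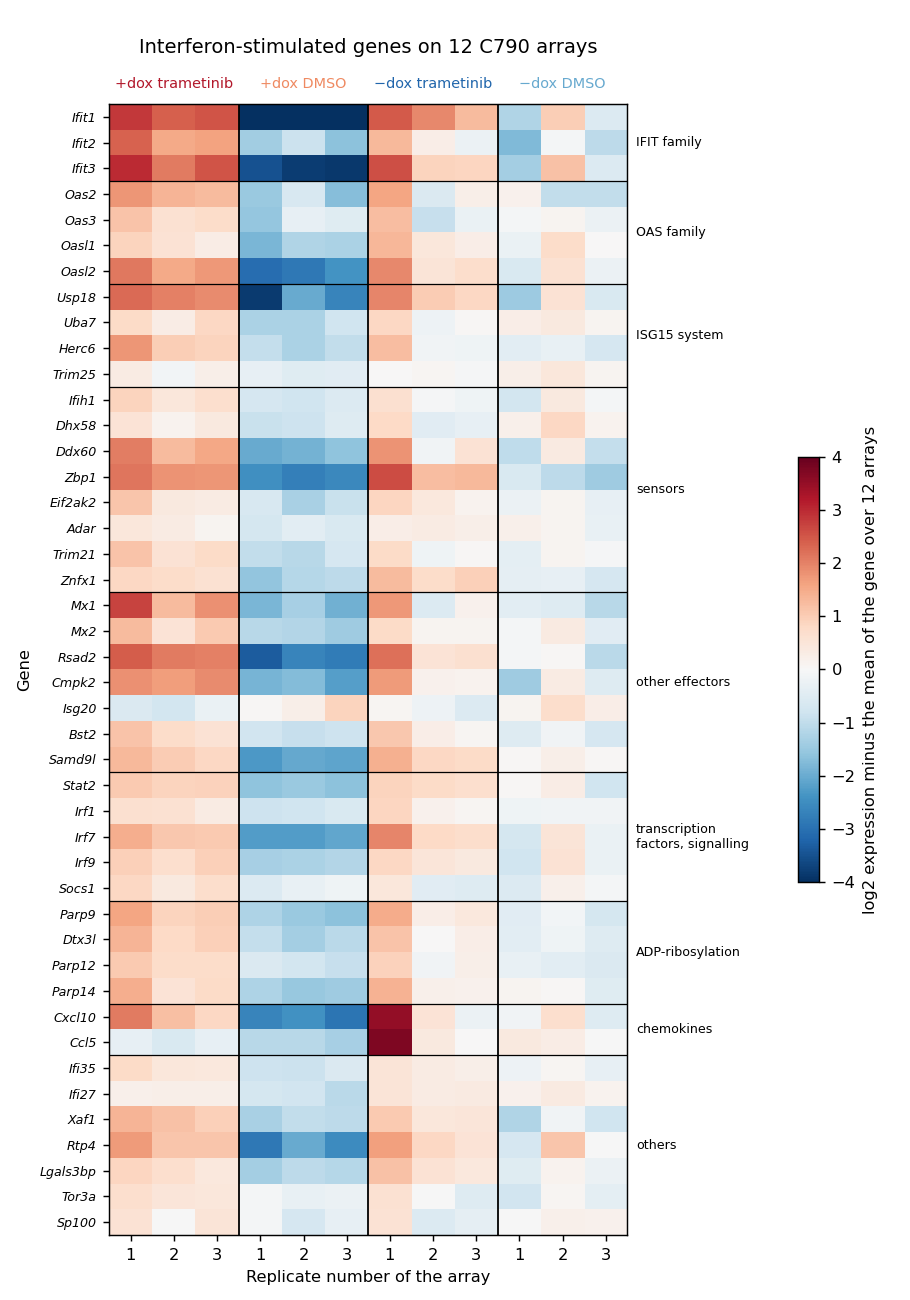
Rows are the 44 members by role and columns the 12 arrays, coloured by log2 expression minus the mean of the gene over all arrays, with the scale ending at 4 on either side of 0. The +dox DMSO columns are blue for nearly all rows, the +dox trametinib columns red, and −dox trametinib replicate 1 is redder than the other arrays of its group.

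The IFIT proteins bind foreign RNA and act as a complex. All 3 measured members rose with trametinib in +dox cells. Ifit1, which recognises RNA with an incomplete cap, had log2 values of 11.89, 11.45 and 11.59 in +dox trametinib cells, 5.01, 4.87 and 4.70 in +dox DMSO cells, 11.53, 11 and 10.33 in −dox trametinib cells and 7.86, 10.06 and 8.53 in −dox DMSO cells (replicates 1, 2 and 3, here and below). The +dox DMSO arrays were at the background level and 2.85 or more under every other array, and the trametinib arrays of both states overlapped. Its change with trametinib was 6.78 (SE 0.46, adjusted p = 7.8e-06) in +dox cells and 2.14 (SE 0.46, adjusted p = 0.0065) in −dox cells, and the responses differed by 4.65 (SE 0.65, adjusted p = 0.022). Under DMSO it was lower in +dox cells, with a change of -3.96 (SE 0.46, adjusted p = 0.00082).

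Ifit3 had log2 values of 12.76, 11.84 and 12.30 in +dox trametinib cells, 6.29, 5.98 and 5.92 in +dox DMSO cells, 12.34, 10.66 and 10.64 in −dox trametinib cells and 8.40, 10.94 and 9.23 in −dox DMSO cells. Again the +dox DMSO arrays stood alone at the bottom, and −dox trametinib overlapped with −dox DMSO through replicate 2 of −dox DMSO. It rose by 6.24 (SE 0.59, adjusted p = 3.7e-05) in +dox cells, while the change of 1.69 (SE 0.59, adjusted p = 0.064) in −dox cells did not pass. The difference of the responses, 4.55, narrowly missed (adjusted p = 0.055). Its near-identical copy Ifit3b may share the probes, so its values are uncertain between both genes. Ifit2, which binds AU-rich RNA, had log2 values of 12.10, 11.25 and 11.37 in +dox trametinib cells, 8.35, 8.89 and 8.09 in +dox DMSO cells, 11.03, 10.01 and 9.50 in −dox trametinib cells and 7.99, 9.67 and 8.70 in −dox DMSO cells. Here the DMSO arrays of both cell states overlapped. It rose by 3.13 (SE 0.46, adjusted p = 0.0005) in +dox and by 1.39 (SE 0.46, adjusted p = 0.049) in −dox cells, and the −dox call was lost in 13 of the alternative fits.

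The active enzymes of the OAS family make the oligoadenylate signal that starts RNA decay by RNase L. All 4 members rose with trametinib in +dox cells and none passed in −dox cells. Oasl2, an active synthetase in the mouse, had log2 values of 11.30, 10.71 and 10.92 in +dox trametinib cells, 6.15, 6.33 and 6.79 in +dox DMSO cells, 11.11, 9.71 and 9.89 in −dox trametinib cells and 8.58, 9.79 and 8.96 in −dox DMSO cells. The +dox DMSO arrays were lowest by a wide gap, and −dox trametinib overlapped with −dox DMSO. The change was 4.55 (SE 0.38, adjusted p = 2e-05) in +dox and 1.13 (SE 0.38, adjusted p = 0.055) in −dox cells, with a difference of 3.43 (SE 0.54, adjusted p = 0.031). Under DMSO it was lower in +dox cells, with a change of -2.69 (SE 0.38, adjusted p = 0.0026).

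Oas2 had log2 values of 10.31, 9.88 and 9.80 in +dox trametinib cells, 7.05, 7.88 and 6.84 in +dox DMSO cells, 10.12, 7.97 and 8.77 in −dox trametinib cells and 8.69, 7.55 and 7.54 in −dox DMSO cells. Only −dox trametinib replicate 1 reached the +dox trametinib arrays. It rose by 2.74 (SE 0.49, adjusted p = 0.0018) in +dox cells. Oasl1, which in the mouse holds back the translation of Irf7, had log2 values of 8.25, 7.94 and 7.66 in +dox trametinib cells, 5.52, 6.16 and 6.09 in +dox DMSO cells, 8.69, 7.80 and 7.62 in −dox trametinib cells and 7.09, 8.10 and 7.37 in −dox DMSO cells. Every +dox DMSO array was under every other array. It rose by 2.03 (SE 0.32, adjusted p = 0.00082) in +dox cells and was lower in +dox than in −dox cells under DMSO, with a change of -1.60 (SE 0.32, adjusted p = 0.015). Oas3 had log2 values of 7.78, 7.25 and 7.35 in +dox trametinib cells, 5.08, 6.31 and 6.14 in +dox DMSO cells, 7.87, 5.71 and 6.36 in −dox trametinib cells and 6.55, 6.75 and 6.38 in −dox DMSO cells. The −dox trametinib values straddled those of −dox DMSO. Its rise in +dox cells, 1.62 (SE 0.47, adjusted p = 0.025), was lost without +dox trametinib replicate 1 or replicate 3 or without +dox DMSO replicate 1.

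**Figure D4:**
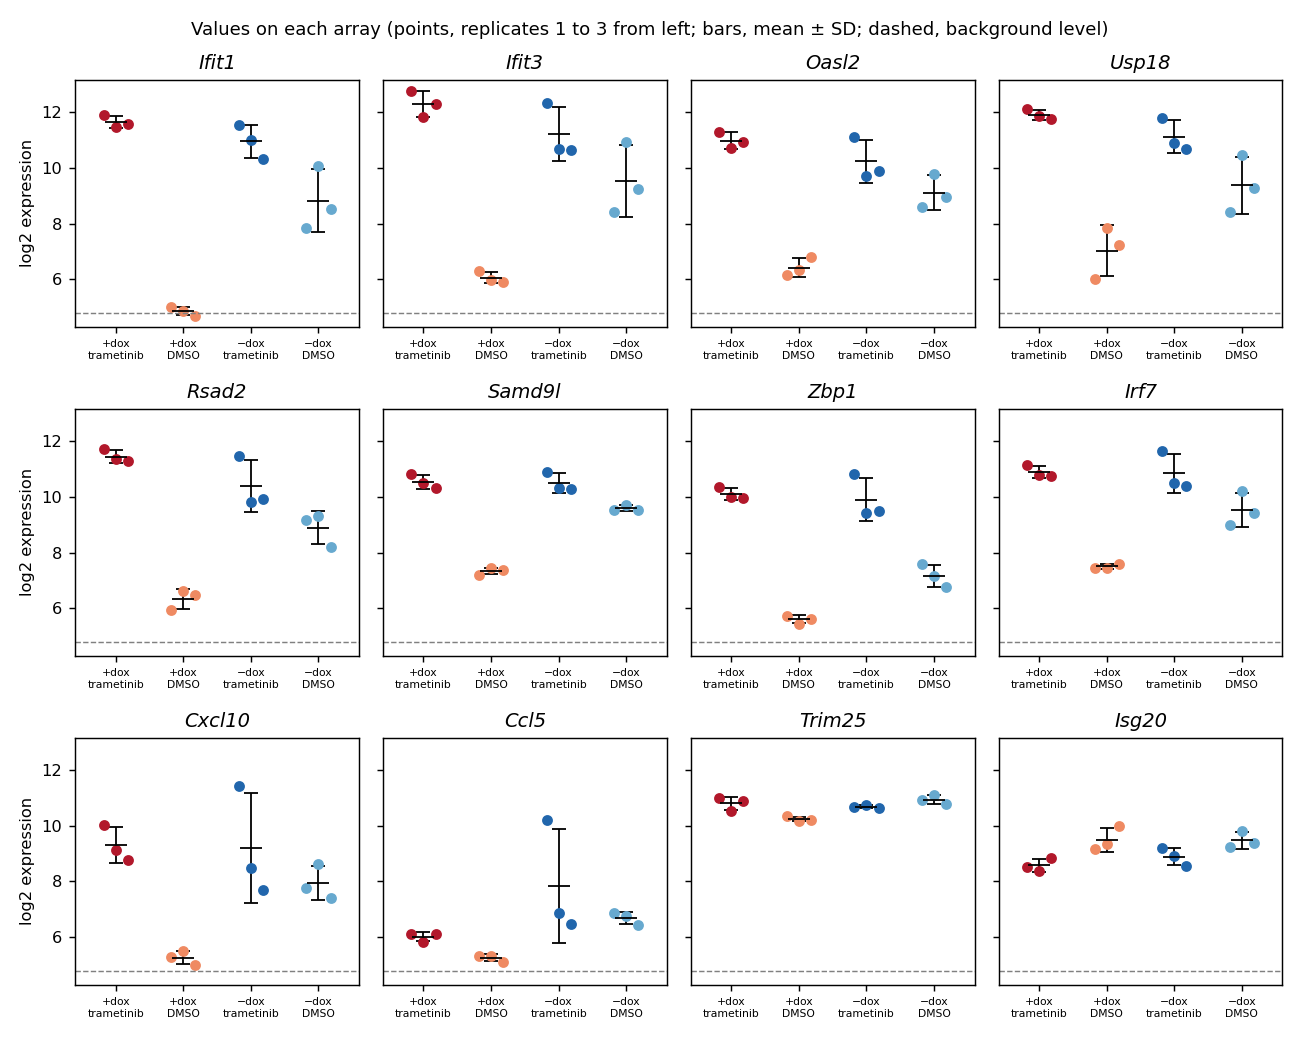
Log2 expression of 12 members on each array (points), with the mean and SD of each group and the background level of 4.78 dashed. The +dox DMSO points of Ifit1 lie at the background level, while Isg20 and Trim25 stay within a narrow range and Ccl5 has a single high point of 10.19.

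The enzymes that attach ISG15, a ubiquitin-like protein, to other proteins or take it off also moved. All 4 measured members rose with trametinib in +dox cells, 1 rose in −dox cells, and 3 were lower in +dox cells under DMSO. Usp18, the protease that removes ISG15 and also damps the interferon receptor, had log2 values of 12.11, 11.87 and 11.76 in +dox trametinib cells, 6.02, 7.83 and 7.22 in +dox DMSO cells, 11.80, 10.88 and 10.69 in −dox trametinib cells and 8.40, 10.45 and 9.26 in −dox DMSO cells. The +dox DMSO arrays were the lowest, and their spread of 0.92 (SD, n = 3) was the widest of that group among members. It rose by 4.89 (SE 0.53, adjusted p = 8.4e-05) in +dox and by 1.75 (SE 0.53, adjusted p = 0.035) in −dox cells, and was lower in +dox cells under DMSO with a change of -2.35 (SE 0.53, adjusted p = 0.026). The −dox call was lost without any single array of the −dox groups other than −dox DMSO replicate 2.

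Herc6, the ISG15 ligase of the mouse, had log2 values of 10.69, 9.89 and 9.81 in +dox trametinib cells, 7.97, 7.66 and 7.94 in +dox DMSO cells, 10.14, 8.76 and 8.75 in −dox trametinib cells and 8.48, 8.63 and 8.24 in −dox DMSO cells. The trametinib arrays of −dox cells lay only just over those of DMSO, apart from replicate 1. It rose by 2.27 (SE 0.34, adjusted p = 0.00064) in +dox cells and changed by 0.77 (SE 0.34, adjusted p = 0.14) in −dox cells. Uba7, the enzyme that activates ISG15, had log2 values of 8.92, 8.46 and 9.0 in +dox trametinib cells, 6.91, 6.91 and 7.37 in +dox DMSO cells, 9.0, 7.98 and 8.21 in −dox trametinib cells and 8.42, 8.56 and 8.29 in −dox DMSO cells. Its +dox DMSO arrays were low and the other 3 groups overlapped. It rose by 1.73 (SE 0.25, adjusted p = 0.00043) in +dox cells, had a change of -0.03 (SE 0.25, adjusted p = 0.95) in −dox cells, and was lower in +dox cells under DMSO, with a change of -1.36 (SE 0.25, adjusted p = 0.0092). Trim25, a ubiquitin ligase that helps the RNA sensor RIG-I, had the narrowest range of these, with log2 values of 10.99, 10.54 and 10.89 in +dox trametinib cells, 10.33, 10.17 and 10.21 in +dox DMSO cells, 10.67, 10.74 and 10.63 in −dox trametinib cells and 10.91, 11.11 and 10.78 in −dox DMSO cells. In −dox cells every trametinib array was under every DMSO array, the only member besides Isg20 with that order. It rose by 0.57 (SE 0.13, adjusted p = 0.0064) in +dox cells and had a change of -0.25 (SE 0.13, adjusted p = 0.19) in −dox cells.

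Sensors of foreign nucleic acid and their helpers rose as a group in +dox cells, 8 of 8, while 2 of 8 rose in −dox cells and 4 of 8 were lower in +dox cells under DMSO. Zbp1, which detects left-handed nucleic acid and can trigger necroptosis, had log2 values of 10.34, 9.98 and 9.96 in +dox trametinib cells, 5.73, 5.45 and 5.62 in +dox DMSO cells, 10.80, 9.41 and 9.48 in −dox trametinib cells and 7.57, 7.15 and 6.75 in −dox DMSO cells. Both trametinib groups were above both DMSO groups, and the +dox DMSO arrays were under the −dox DMSO arrays. It rose by 4.49 (SE 0.33, adjusted p = 1e-05) in +dox and by 2.74 (SE 0.33, adjusted p = 0.00023) in −dox cells, the largest change of any member in −dox cells. Under DMSO its difference between cell states was -1.56 (SE 0.33, adjusted p = 0.019), a call lost with the mean of its probe sets or without +dox DMSO replicate 2 or 3.

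Ddx60, a helicase that aids RNA sensing, had log2 values of 8.82, 8.05 and 8.32 in +dox trametinib cells, 4.77, 4.89 and 5.18 in +dox DMSO cells, 8.58, 6.65 and 7.34 in −dox trametinib cells and 5.76, 7.14 and 5.81 in −dox DMSO cells. In +dox DMSO cells replicate 1 was at the background level, and −dox trametinib replicate 2 fell inside the −dox DMSO range. It rose by 3.45 (SE 0.47, adjusted p = 0.00031) in +dox cells and did not pass in −dox cells (1.29 (SE 0.47, adjusted p = 0.072)). Znfx1, a helicase that senses double-stranded RNA at mitochondria, had log2 values of 8.10, 8.0 and 7.89 in +dox trametinib cells, 5.68, 6.13 and 6.21 in +dox DMSO cells, 8.54, 7.99 and 8.21 in −dox trametinib cells and 6.91, 6.93 and 6.61 in −dox DMSO cells. The trametinib arrays of both states were above all DMSO arrays. Its rise was 1.99 (SE 0.17, adjusted p = 2.3e-05) in +dox and 1.43 (SE 0.17, adjusted p = 0.00023) in −dox cells, and this −dox call passed in every fit tried, as did those of Zbp1, Xaf1, Samd9l and Lgals3bp. Adar, which edits double-stranded RNA, moved least among the sensors, with log2 values of 9.38, 9.24 and 9.02 in +dox trametinib cells, 8.21, 8.48 and 8.30 in +dox DMSO cells, 9.19, 9.26 and 9.14 in −dox trametinib cells and 9.13, 9.02 and 8.63 in −dox DMSO cells. Only the +dox DMSO arrays stood apart. It rose by 0.88 (SE 0.14, adjusted p = 0.00091) in +dox cells.

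The other sensors had smaller rises in +dox cells. These were 1.76 for Trim21, the intracellular antibody receptor, 1.55 for Eif2ak2, the kinase PKR that stops translation, 1.33 for Ifih1, the RNA sensor MDA5, and 1.10 for Dhx58, its partner LGP2. None of these 4 passed in −dox cells, with changes between -0.39 (Dhx58) and 0.62 (Eif2ak2), though a less bright probe set of Eif2ak2 narrowly did (change 0.62, adjusted p = 0.0498). Dhx58 was lower in +dox cells under DMSO (-1.14 (SE 0.30, adjusted p = 0.045)), while Eif2ak2 passed there with the replicate number as a block (change -0.80, adjusted p = 0.041 with the block) or with array weights. Both calls of Dhx58 were lost with the mean of its probe sets, 2 of which did not pass in +dox cells, and without +dox trametinib replicate 1 or +dox DMSO replicate 1 or 2.

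Among the other effectors 6 of 7 rose and 1 fell with trametinib in +dox cells, and 3 rose in −dox cells. Rsad2 (viperin), which makes a chain terminator of viral RNA synthesis, had log2 values of 11.70, 11.34 and 11.28 in +dox trametinib cells, 5.94, 6.62 and 6.46 in +dox DMSO cells, 11.48, 9.80 and 9.92 in −dox trametinib cells and 9.18, 9.30 and 8.20 in −dox DMSO cells. The +dox DMSO arrays were lowest, then the −dox DMSO arrays, and −dox trametinib replicate 1 reached the +dox trametinib arrays. The change was 5.10 (SE 0.42, adjusted p = 1.8e-05) in +dox and 1.51 (SE 0.42, adjusted p = 0.024) in −dox cells, a difference of 3.59 (SE 0.59, adjusted p = 0.034). Its neighbour Cmpk2, a nucleotide kinase, had log2 values of 9.30, 9.15 and 9.37 in +dox trametinib cells, 5.60, 5.72 and 5.25 in +dox DMSO cells, 9.18, 7.63 and 7.59 in −dox trametinib cells and 6.04, 7.78 and 6.96 in −dox DMSO cells. Both DMSO groups overlapped with none of the +dox trametinib arrays. It rose by 3.75 (SE 0.45, adjusted p = 0.00015) in +dox cells, against 1.21 (SE 0.45, adjusted p = 0.081) in −dox cells, where it did not pass. The other probe set of Cmpk2 did rise in −dox cells, by 1.81 (adjusted p = 0.03). Under DMSO that probe set was lower in +dox cells, with a change of -2.38 (adjusted p = 0.028).

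Samd9l, which restricts viral protein synthesis, had log2 values of 10.80, 10.50 and 10.31 in +dox trametinib cells, 7.20, 7.43 and 7.37 in +dox DMSO cells, 10.90, 10.31 and 10.27 in −dox trametinib cells and 9.53, 9.72 and 9.53 in −dox DMSO cells. The trametinib arrays of both states overlapped, all −dox DMSO arrays lay within 0.19 of each other, and the +dox DMSO arrays were more than 2 units lower still. The change was 3.20 (SE 0.17, adjusted p = 2.7e-06) in +dox and 0.90 (SE 0.17, adjusted p = 0.0037) in −dox cells, and the difference of 2.30 (SE 0.25, adjusted p = 0.0075) passed in every fit tried. Under DMSO it was lower in +dox cells with a change of -2.26 (SE 0.17, adjusted p = 0.00015), the smallest adjusted p of any member in that comparison.

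Mx1, a dynamin-like GTPase that blocks influenza virus in the mouse nucleus, had log2 values of 9.99, 8.54 and 9.11 in +dox trametinib cells, 5.45, 5.95 and 5.35 in +dox DMSO cells, 9.03, 6.74 and 7.44 in −dox trametinib cells and 6.85, 6.75 and 6.16 in −dox DMSO cells. Its −dox trametinib arrays were scattered, with 2 of them inside or near the DMSO range. It rose by 3.63 (SE 0.51, adjusted p = 0.00041) in +dox cells and did not pass in −dox cells (1.15 (SE 0.51, adjusted p = 0.14)). Isg20, an exonuclease that degrades RNA, moved against the rest, with log2 values of 8.53, 8.38 and 8.84 in +dox trametinib cells, 9.15, 9.33 and 9.99 in +dox DMSO cells, 9.19, 8.91 and 8.57 in −dox trametinib cells and 9.23, 9.82 and 9.39 in −dox DMSO cells. In each cell state every trametinib array was under every DMSO array. It fell with a change of -0.91 (SE 0.24, adjusted p = 0.016) in +dox cells, a call lost without +dox trametinib replicate 1 or replicate 2 or +dox DMSO replicate 3, and changed by -0.59 (SE 0.24, adjusted p = 0.11) in −dox cells. Mx2, the cytoplasmic GTPase, and Bst2 (tetherin), which holds budding virions at the membrane, rose in +dox cells by 2.19 and 1.66. In −dox cells the changes were 0.38 for Mx2, which did not pass, and 0.92 for Bst2, which did (adjusted p = 0.018).

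All 5 transcription factors and signalling genes rose with trametinib in +dox cells, and Stat2 and Irf7 also rose in −dox cells. Irf7, the factor that amplifies interferon transcription, had log2 values of 11.15, 10.77 and 10.75 in +dox trametinib cells, 7.45, 7.45 and 7.60 in +dox DMSO cells, 11.66, 10.48 and 10.40 in −dox trametinib cells and 8.98, 10.20 and 9.42 in −dox DMSO cells. The +dox DMSO arrays lay within 0.15 of each other at the bottom, and −dox trametinib replicate 1 was the highest of all 12. Its change was 3.39 (SE 0.34, adjusted p = 5.5e-05) in +dox and 1.31 (SE 0.34, adjusted p = 0.018) in −dox cells, and -2.03 (SE 0.34, adjusted p = 0.0068) between the states under DMSO. Stat2, which carries the activating domain of the ISRE-binding complex, had log2 values of 8.75, 8.59 and 8.64 in +dox trametinib cells, 6.10, 6.21 and 6.06 in +dox DMSO cells, 8.59, 8.48 and 8.37 in −dox trametinib cells and 7.74, 7.99 and 6.92 in −dox DMSO cells. The trametinib arrays of both states touched at 8.59 and were above all DMSO arrays. It rose by 2.54 (SE 0.21, adjusted p = 2e-05) in +dox and by 0.93 (SE 0.21, adjusted p = 0.0094) in −dox cells.

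Irf9, the subunit that touches the ISRE, had log2 values of 9.84, 9.55 and 9.82 in +dox trametinib cells, 7.55, 7.60 and 7.72 in +dox DMSO cells, 9.70, 9.35 and 9.26 in −dox trametinib cells and 8.07, 9.44 and 8.62 in −dox DMSO cells. Replicate 2 of −dox DMSO lay above 2 of the −dox trametinib arrays. It rose by 2.11 (SE 0.27, adjusted p = 0.00022) in +dox cells, against 0.73 (SE 0.27, adjusted p = 0.079) in −dox cells. Socs1, the feedback inhibitor of the receptor kinases, had log2 values of 6.67, 6.24 and 6.55 in +dox trametinib cells, 5.30, 5.54 and 5.66 in +dox DMSO cells, 6.29, 5.39 and 5.34 in −dox trametinib cells and 5.31, 6.04 and 5.78 in −dox DMSO cells. In −dox cells the trametinib and DMSO arrays overlapped. Its rise in +dox cells, 0.99 (SE 0.26, adjusted p = 0.014), was lost without +dox trametinib replicate 1 or +dox DMSO replicate 1. Irf1, an interferon-induced activator, rose by 1.27 in +dox cells and did not pass in −dox cells (change 0.51, adjusted p = 0.07).

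The ADP-ribosylation genes behaved alike in direction, 4 of 4 rising in +dox and 3 of 4 in −dox cells. Parp9 had log2 values of 11.59, 10.90 and 11 in +dox trametinib cells, 8.77, 8.54 and 8.38 in +dox DMSO cells, 11.49, 10.26 and 10.42 in −dox trametinib cells and 9.55, 9.89 and 9.32 in −dox DMSO cells. The trametinib arrays of both states were above all DMSO arrays. It rose by 2.60 (SE 0.30, adjusted p = 0.00012) in +dox and by 1.14 (SE 0.30, adjusted p = 0.019) in −dox cells, and its difference under DMSO (-1.02) passed with the block (adjusted p = 0.028) and in other fits, among them the one without −dox trametinib replicate 1. Dtx3l, the ubiquitin ligase that pairs with Parp9, had log2 values of 10.98, 10.41 and 10.58 in +dox trametinib cells, 8.67, 8.26 and 8.53 in +dox DMSO cells, 10.76, 9.63 and 9.88 in −dox trametinib cells and 9.21, 9.45 and 9.11 in −dox DMSO cells. The same order of arrays was seen. It rose by 2.17 (SE 0.26, adjusted p = 0.00014) in +dox and by 0.83 (SE 0.26, adjusted p = 0.039) in −dox cells.

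Parp14, a mono-ADP-ribosyltransferase, had log2 values of 10.25, 9.35 and 9.55 in +dox trametinib cells, 7.56, 7.27 and 7.37 in +dox DMSO cells, 10.18, 8.99 and 8.97 in −dox trametinib cells and 8.89, 8.84 and 8.32 in −dox DMSO cells. The −dox trametinib arrays were just above the −dox DMSO arrays, apart from the high replicate 1. It rose by 2.32 (SE 0.32, adjusted p = 0.00038) in +dox cells and was lower in +dox cells under DMSO, with a change of -1.28 (SE 0.32, adjusted p = 0.04). The call under DMSO was lost in 8 alternative fits, among them the mean of its probe sets and each fit that left out a DMSO array. Parp12, a transferase that blocks viral translation, had log2 values of 12.53, 12.24 and 12.23 in +dox trametinib cells, 10.90, 10.75 and 10.58 in +dox DMSO cells, 12.41, 11.36 and 11.73 in −dox trametinib cells and 11.18, 11.07 and 10.92 in −dox DMSO cells. All DMSO arrays were under all trametinib arrays. Its change was 1.59 (SE 0.22, adjusted p = 0.00035) in +dox and 0.78 (SE 0.22, adjusted p = 0.026) in −dox cells.

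The 2 chemokines of the set, which draw T cells, differed from each other. Cxcl10 had log2 values of 10.01, 9.12 and 8.76 in +dox trametinib cells, 5.29, 5.49 and 5.01 in +dox DMSO cells, 11.44, 8.47 and 7.70 in −dox trametinib cells and 7.77, 8.61 and 7.42 in −dox DMSO cells. The highest value of the 12 was −dox trametinib replicate 1, and the lowest 3 were the +dox DMSO arrays. It rose by 4.03 (SE 0.76, adjusted p = 0.0023) in +dox cells, while the change in −dox cells, 1.27 (SE 0.76, adjusted p = 0.28), was 0.15 without −dox trametinib replicate 1. Under DMSO the difference of -2.67 did not pass (adjusted p = 0.064), but did with the block (adjusted p = 0.031), with only the arrays compared, with array weights, and without −dox trametinib replicate 1 or 3.

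Ccl5 had log2 values of 6.12, 5.83 and 6.11 in +dox trametinib cells, 5.34, 5.34 and 5.12 in +dox DMSO cells, 10.19, 6.85 and 6.48 in −dox trametinib cells and 6.85, 6.76 and 6.43 in −dox DMSO cells. A single array, −dox trametinib replicate 1, was more than 3 units above every other array, and the +dox arrays of both treatments were under all −dox arrays. No comparison of Ccl5 passed over the 12 arrays, and the change with trametinib in +dox cells was 0.75 (SE 0.72, adjusted p = 0.53). Without −dox trametinib replicate 1 that change had an adjusted p of 0.0037, and the difference of -1.41 under DMSO an adjusted p of 0.00079.

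Of the remaining members 5 of 7 rose in +dox and 3 of 7 in −dox cells. Rtp4, a chaperone of membrane receptors that damps interferon responses, had log2 values of 11.41, 10.79 and 10.81 in +dox trametinib cells, 6.85, 7.67 and 7.18 in +dox DMSO cells, 11.34, 10.53 and 10.24 in −dox trametinib cells and 9.03, 10.81 and 9.67 in −dox DMSO cells. Replicate 2 of −dox DMSO was as high as the trametinib arrays. It rose by 3.77 (SE 0.42, adjusted p = 0.0001) in +dox cells and was lower in +dox cells under DMSO (-2.60 (SE 0.42, adjusted p = 0.0054)). Xaf1, which favours apoptosis, had log2 values of 12.16, 11.98 and 11.78 in +dox trametinib cells, 9.50, 9.83 and 9.78 in +dox DMSO cells, 11.85, 11.28 and 11.29 in −dox trametinib cells and 9.61, 10.68 and 10 in −dox DMSO cells. The DMSO arrays of both states overlapped and all trametinib arrays were higher. Its rise was 2.27 (SE 0.25, adjusted p = 8.7e-05) in +dox and 1.38 (SE 0.25, adjusted p = 0.0023) in −dox cells. Lgals3bp, a secreted glycoprotein that binds galectins, had log2 values of 11.65, 11.46 and 11.20 in +dox trametinib cells, 9.42, 9.73 and 9.66 in +dox DMSO cells, 11.97, 11.37 and 11.21 in −dox trametinib cells and 10.31, 10.94 and 10.56 in −dox DMSO cells. The trametinib arrays were the highest, and the +dox DMSO arrays the lowest. It rose by 1.83 (SE 0.21, adjusted p = 0.00013) in +dox and by 0.91 (SE 0.21, adjusted p = 0.01) in −dox cells.

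Ifi35 and Ifi27, 2 interferon-induced proteins, rose by 1.31 and 1.07 in +dox cells and were lower in +dox cells under DMSO, with changes of -0.61 and -1.06. In −dox cells Ifi35 rose by 0.51, and Ifi27, with a change of 0.19, did not pass. Sp100, a protein of PML nuclear bodies, had the narrowest range of these, with log2 values of 8.75, 8.16 and 8.69 in +dox trametinib cells, 8.10, 7.50 and 7.86 in +dox DMSO cells, 8.74, 7.63 and 7.83 in −dox trametinib cells and 8.15, 8.38 and 8.34 in −dox DMSO cells. The +dox trametinib arrays were just above the +dox DMSO arrays. Its change of 0.71 (SE 0.27, adjusted p = 0.077) did not pass, but did with the block (adjusted p = 0.034) and with the mean of its probe sets, the other of which rose by 2.11 (adjusted p = 0.00027). Tor3a, an ATPase of the endoplasmic reticulum, did not pass either on its brightest probe set, with a change of 0.73 (SE 0.26, adjusted p = 0.058). Its other 2 probe sets rose, by 1.10 (adjusted p = 0.0062) and 1.24 (adjusted p = 0.0036), and the call was gained in 8 alternative fits, among them the mean of its probe sets. The same 2 probe sets also rose in −dox cells, by 0.85 (adjusted p = 0.028) and 1.07 (adjusted p = 0.01), where the brightest did not pass.

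**Figure D5:**
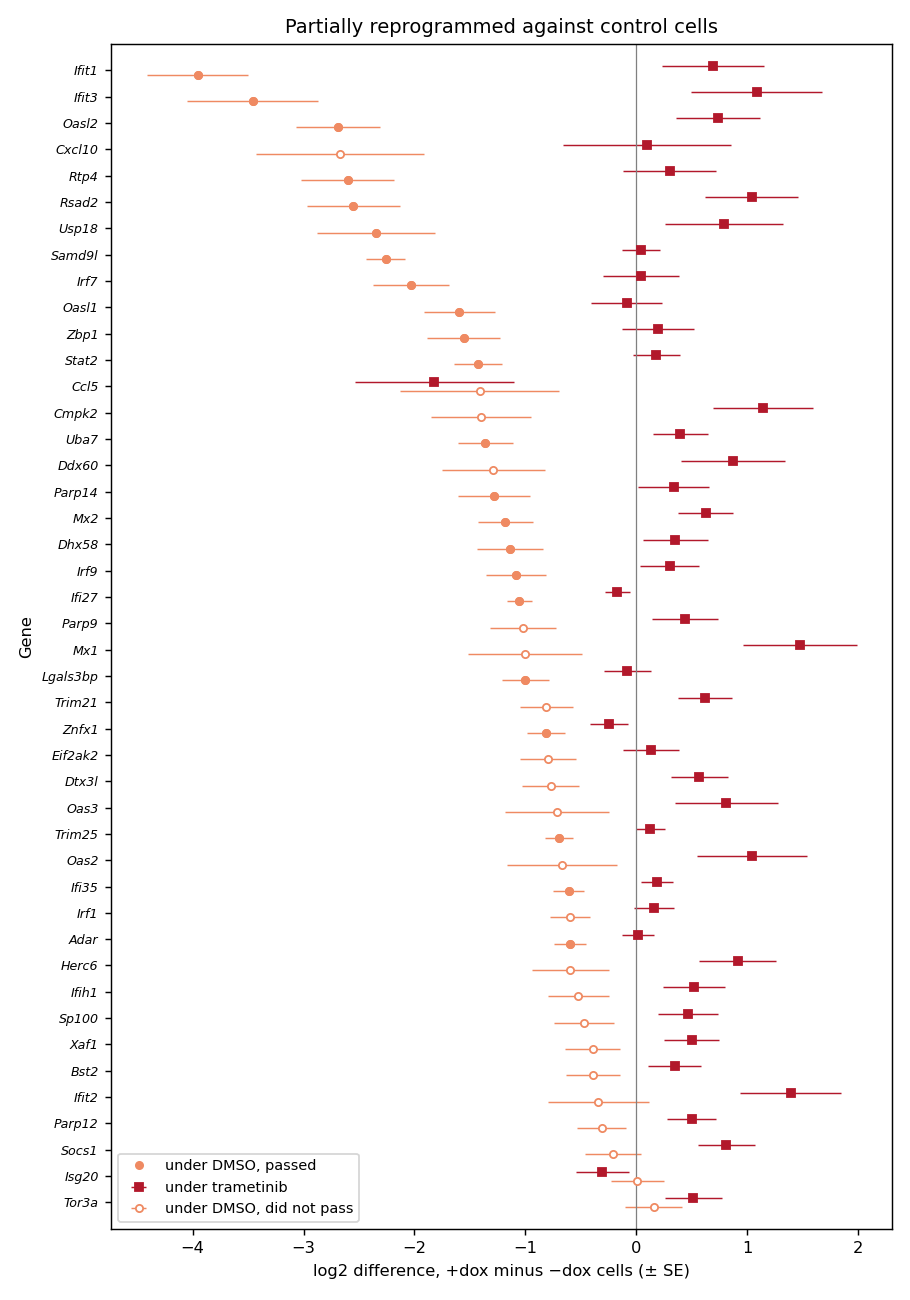
For each of 44 members, the log2 difference of +dox minus −dox cells under trametinib (red squares, none passed) and under DMSO (orange circles, filled where the test passed), with standard errors. Under DMSO the points reach -3.96 for Ifit1, while under trametinib they lie between -1.82 (Ccl5) and 1.48 (Mx1).

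Of the 22 calls between the cell states under DMSO, 12 passed in every fit tried at the same threshold. These were Samd9l, Ifi27, Ifit1, Oasl2, Stat2, Rtp4, Rsad2, Irf7, Ifit3, Uba7, Trim25 and Oasl1. Ifi27 had values of 11.94, 11.99 and 11.99 in +dox trametinib cells, 11.04, 10.99 and 10.68 in +dox DMSO cells, 12.27, 12.06 and 12.11 in −dox trametinib cells and 11.91, 12.09 and 11.88 in −dox DMSO cells. Its +dox DMSO arrays were the lowest and those of the other 3 groups lay close together. Its difference under DMSO was -1.06 (SE 0.11, adjusted p = 0.00063).

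Among the 4 members with different responses, Samd9l alone passed in every fit tried. Ifit1 was lost without +dox trametinib replicate 1, +dox DMSO replicate 2 or 3, −dox trametinib replicate 3 or −dox DMSO replicate 3, with adjusted p up to 0.069. Oasl2 was lost without 9 of the 12 arrays and Rsad2 without 8, one at a time, with adjusted p up to 0.086 and 0.094. With the replicate block 9 members passed, the 4 and Ifi27, Mx2, Parp14, Stat2 and Zbp1, and without −dox trametinib replicate 1 the count was 22. Over all 18193 genes the main fit called 47 higher and 13 lower. These counts were 85 and 56 with the block, and 110 and 31 without that array.

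The rest of the interferon pathway was read from a list of 74 further genes, 61 of them measured. In +dox cells 14 of the 61 rose with trametinib and 2 fell, where 13.8% and 12.5% of all genes did. In −dox cells 9 rose and 4 fell, against 11.6% and 10.8% of all genes. Under DMSO 0 were higher and 4 lower in +dox cells (2.87% and 3.28% of all genes), and under trametinib 1 was higher and 1 lower (1.95% and 1.42%). One, Oas1b, passed the difference between the responses (1.82 (SE 0.33, adjusted p = 0.05)).

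Of 9 measured interferon genes 7 were under the background level on all 12 arrays, and none of the 9 passed in any comparison. The other 2 lay near it, Ifna1 with group means of 5.02, 4.82, 5.33 and 4.90 and Ifna9 with 5.42, 5.57, 5.51 and 5.48 in +dox trametinib, +dox DMSO, −dox trametinib and −dox DMSO cells. Ifnb1, the first interferon made by many infected cells, had log2 values of 4.06, 4.13 and 4.17 in +dox trametinib cells, 3.81, 4.24 and 3.98 in +dox DMSO cells, 4.16, 4.29 and 4.24 in −dox trametinib cells and 3.80, 4.17 and 4.14 in −dox DMSO cells. All 12 values of Ifnb1 were under the level of 4.78, and no order can be read among them.

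Of 9 receptors and kinases 1 rose and 0 fell with trametinib in +dox cells, where 13.8% and 12.5% of all genes did. In −dox cells 3 rose and 1 fell, against 11.6% and 10.8% of all genes. So few genes cannot be told from these shares. Ifnar1 and Ifnar2 did not pass in any comparison, with changes in +dox cells of 0.32 and -0.30. Jak2, a kinase of related receptors, rose by 1.08 (SE 0.14, adjusted p = 0.00028) in +dox and by 0.54 (SE 0.14, adjusted p = 0.019) in −dox cells. Tyk2 fell in −dox cells (-0.52 (SE 0.13, adjusted p = 0.015)).

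Among the further sensors Tlr3, the endosomal receptor for double-stranded RNA, had log2 values of 9.87, 9.15 and 9.31 in +dox trametinib cells, 6.80, 6.91 and 6.83 in +dox DMSO cells, 8.99, 7.90 and 8.08 in −dox trametinib cells and 7.10, 7.59 and 7.23 in −dox DMSO cells. Its +dox trametinib arrays were above all others. It rose by 2.60 (SE 0.27, adjusted p = 6e-05) in +dox and by 1.02 (SE 0.27, adjusted p = 0.018) in −dox cells, and was the only gene of the list higher in +dox cells under trametinib (1.12 (SE 0.27, adjusted p = 0.046)). Rigi, the RNA sensor RIG-I, rose by 1.14 (SE 0.26, adjusted p = 0.0068) in +dox cells. Cgas, the sensor of cytosolic DNA, fell in both states, with changes of -0.73 (SE 0.20, adjusted p = 0.02) and -0.92 (SE 0.20, adjusted p = 0.0079).

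Of adaptors and transcription factors, Myd88 rose by 0.88 (SE 0.14, adjusted p = 0.00074) in +dox and by 1.01 (SE 0.14, adjusted p = 0.00045) in −dox cells, and Batf2 by 1.15 (SE 0.24, adjusted p = 0.0039) in +dox cells. Irf3, Mavs and Tbk1, which carry the signal that starts interferon transcription, did not pass in any comparison. Of the brakes, Usp25 rose and Ptpn2 fell with trametinib in +dox cells, with changes of 0.65 and -0.53.

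Of 16 further stimulated genes 7 rose and 0 fell in +dox cells, where 13.8% and 12.5% of all genes did. In −dox cells 3 rose and 1 fell, against 11.6% and 10.8% of all genes. Ifi47, an interferon-induced GTPase, rose by 3.79 (SE 0.34, adjusted p = 2.6e-05) in +dox and by 1.87 (SE 0.34, adjusted p = 0.0023) in −dox cells. Oas1a, a synthetase like Oas2, rose by 3.69 (SE 0.50, adjusted p = 0.00031) and by 1.72 (SE 0.50, adjusted p = 0.029). Ifitm1, a membrane protein that hinders viral entry, went the other way, and in −dox cells it fell with a change of -3.11 (SE 0.70, adjusted p = 0.0083). In +dox cells its change was -1.07, which did not pass.

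Probe sets of one member mostly gave the same call. Of 74 probe sets of the 44 members tested one by one, 64 were higher and 1 lower with trametinib in +dox cells, 26 higher in −dox cells, 28 lower in +dox cells under DMSO, 0 called between the states under trametinib and 4 higher for the difference of responses. Calls over all 34945 single-gene probe sets were not counted. The shares of genes given above do not apply to these counts, which only compare probe sets of the same member. Dhx58, Uba7, Adar, Parp14, Trim25, Sp100 and Tor3a each had a probe set that did not pass with trametinib in +dox cells beside one that did.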

How the data were processed

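RNA on 12 arrays was read as log2 expression values per probe set, which the authors made by RMA (background correction, quantile normalisation and summary of the probes) in Chipster and deposited for 45101 probe sets, and whose quantile step leaves arrays with similar medians. The version of that software is not given in the sources used here. Here probe sets were named through the platform annotation: 34945 had 1 gene, 932 had several and were left out with 64 controls, and the brightest single-gene probe set stood for each of 18193 genes. Levels were set against those of other genes only through the background level, and combined over genes only in means and sums over a list.

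A group-means model of all 12 arrays was fitted with limma 3.58.1 (lmFit and eBayes, R 4.3.3), with Benjamini-Hochberg adjustment over all 18193 genes and a threshold of 0.05, and was tested on simulated data. Fold changes are differences of group means on the log2 scale. The background level was the 95th percentile, 4.78, of 83 olfactory, vomeronasal and taste receptor probe sets. It was 4.32 at the 90th and 5.42 at the 99th percentile. The number of arrays limits the precision. Promoters were scanned in Python 3.11.15 with pandas 2.3.3, and plots drawn with matplotlib 3.10.9.

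The members, roles and lists were chosen with earlier results of these data known. Values on every array are given, in each role, for up to 3 members with the widest range of group means and the one with the narrowest, for members that passed the difference of responses and for those that moved against the others. Other genes of the pathway are named where they passed, at most 2 a role. Cgas, Oas1b, Ifitm1, Ifnb1, Ifna1, Ifna9, Ifnar1, Ifnar2, Irf3, Mavs and Tbk1 were chosen after their values were seen, as were Ifi27 beside its values and the genes of the last part.

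Whether the replicate number pairs arrays was checked from the correlation, over all genes, of the deviations of same-numbered arrays from their group means. It was 0.16 to 0.45 between trametinib and DMSO in +dox cells, 0.02 to 0.46 in −dox cells, 0.17 to 0.34 between the cell states under DMSO and 0.21 to 0.29 under trametinib. All of these were above 0, and the lowest, 0.02, was that of replicate 3 in −dox cells. Arrays with different numbers were not correlated as a reference, so this check cannot decide whether the numbers pair arrays. The main model used no pairing. Alternatives were the replicate block, only the arrays compared, averaging the probe sets of each gene, a filter at the background level, quantile normalisation, centring, array weights, a trended robust variance, other thresholds and leaving out each array. Tests of probe sets one by one were added after seeing the data.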

Additional observations from a re-analysis of the deposited data

Results flagged for a closer look

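A test of the difference between the trametinib responses of partially reprogrammed and control cells set apart 4 members. The response of Ifit1 was larger in +dox cells by 4.65 on the log2 scale, that of Rsad2 by 3.59, that of Oasl2 by 3.43 and that of Samd9l by 2.30. In +dox cells every trametinib array of these genes was above every DMSO array, and the same held in −dox cells for Ifit1, Rsad2 and Samd9l but not for Oasl2, whose arrays overlapped. The 4 also lay lower in +dox than in −dox cells under DMSO, with differences of -3.96, -2.55, -2.69 and -2.26, while under trametinib the differences were 0.69, 1.04, 0.74 and 0.04 and none passed. These comparisons share arrays, and a difference of responses is the difference under trametinib minus that under DMSO.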

How the results depend on the processing

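In +dox cells the 41 calls with trametinib became 37 to 44 over all alternatives, and no member changed direction while called in any comparison. With trametinib in −dox cells the 16 calls became 5 with only the arrays compared, 29 with array weights, 9 with a fold over 2, 6 at an adjusted p under 0.01 and 7 to 20 when 1 array was left out, the median change of 0.85 being 0.47 to 0.99. Between the cell states under DMSO the 22 calls became 11 at an adjusted p under 0.01 and 13 to 29 with 1 array left out. Under trametinib the 0 calls became 6 with array weights and 0 to 11 with 1 array left out, and the median 0.25 to 0.76. For the difference of responses the 4 calls became 9 with the replicate block, 29 with array weights, 1 at an adjusted p under 0.01, 10 under 0.1 and 1 to 22 with 1 array left out, and its median 1.25 to 1.84. With the replicate block the other counts were 42, 18, 25 and 0, and no call was lost. The array left out at the highest counts of 22, 29 and 11 was −dox trametinib replicate 1. Calls over all 18193 genes moved as well. Array weights gave 680 higher and 386 lower for the difference of responses, against 47 and 13 in the main fit. With trametinib in −dox cells they gave 3496 and 3635, and only the arrays compared 1436 and 1535, against 2113 and 1959. Without −dox trametinib replicate 1 the difference of responses had 110 and 31, and the comparison under DMSO 558 and 692, against 522 and 596. Called under every fit were 37 of 41, 5 of 16, 12 of 22 and 1 of 4 members. Centring each array on its median moved the median change of all genes to 0.19 in −dox cells and -0.21 for the difference of responses, and the −dox calls over all genes from 2113 higher and 1959 lower to 4193 and 1544, with 23 members called. The causes were not tested. A fit on only the arrays compared could not be made for the difference of responses. At the 99th percentile the background level, 5.42, lay above the +dox DMSO means of Ifit1, Ddx60, Mx2, Cxcl10 and Ccl5, and fold changes against these are then lower bounds.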

Other observations

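The array of −dox trametinib replicate 1 also stood high for genes outside the set that were chosen after their values were seen. Slfn2, a Schlafen gene induced by interferon, had a log2 value of 8.56 on it, against 6.13 and 6.04 on replicates 2 and 3. Tnfaip3, which restrains NF-kB signalling, had 9.87 on it, against 7.99 and 7.05, and Nfkbia, the inhibitor of NF-kB, had 13.33, against 12.43 and 12.15. For all 3 genes it was the highest of the 12 arrays, as it was for Ccl5 and Cxcl10. None of the 3 passed in any comparison. Their part in the spread of the set was not tested.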
